A study of Homo sapiens with 2 samples.

Results

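The DLK1-DIO3 domain on human chromosome 14 is an imprinted region, in which the copy from 1 parent is active and the other is silent. DLK1, RTL1 and DIO3, its protein-coding genes, are read from the paternal copy, while a chain of long non-coding RNAs (MEG3, MEG8, MEG9) and a large array of microRNAs (miRNAs) are read from the maternal copy. miRNAs are short RNAs that repress messenger RNAs which match their seed, bases 2 to 8. The array is known for its high output in placenta, embryo and brain. The loci described here were chosen by position and name, not by level: those whose identifier starts with chromosome 14 and whose miRNA number is one of 41 of the array. They came to 25 of the 947 loci in the table of counts, with 24 distinct names, and 22 of the 41 numbers were present.

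The cells were MCF10A, a non-tumorigenic human breast epithelial line. One group was left untreated (3 small RNA libraries), and the other (3 libraries) was exposed for 24 h to withaferin A at 2 µM, a plant steroidal lactone of Withania somnifera. No label says that the libraries came from separate cultures. The protocol names a QIAseq and a NEBNext kit that, in the order written, go with one group each, so the kit cannot be told apart from the treatment. Untreated libraries held 1855838 to 2615684 counts and withaferin A libraries 340 to 430. As a check of the cell type, epithelial miRNAs (miR-205, miR-203a, the miR-200 and miR-141 group) took 7.49% ± 0.486 of untreated counts (SD, n = 3), against 0.00510% ± 0.000554 for mesenchymal and stromal miRNAs (miR-143, miR-145, the miR-199 group, miR-10b) and 0.000985% ± 0.000303 for blood miRNAs. Neural miRNAs took 0.222% ± 0.0745, mostly miR-128, and muscle and liver miRNAs 0.00562% ± 0.00201. miR-128, the miR-199 group and miR-1 had equal counts under different names. Each name was added, so these shares may hold the same reads more than once. Levels are given as CPM, a locus's counts per 1000000 counts of its library. The library total adds every locus too, including names and copies with equal counts. It may therefore hold the same reads more than once, which limits all shares, CPM and ranks given here. The epithelial sum of 74938.5 CPM was mostly miR-205-5p (68184.5 CPM), followed by miR-200c-5p (6153 CPM). Not all of that list was high: miR-200a-5p (14.5 CPM) and miR-429 (4.18 CPM) lay below miR-143-5p (18.5 CPM) and miR-9-5p (48.3 CPM). In such bulk libraries, fewer cells that hold a miRNA and less of it per cell cannot be told apart.

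The 10 array miRNAs with the highest mean untreated level have these mature sequences in RefSeq (GRCh38.p14), with the seed in capitals. They are shown because they carried 86.3% of the summed member level.
miR-381-5p: aGCGAGGUugcccuuuguauau
miR-379-5p: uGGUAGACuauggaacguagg
miR-494-5p: aGGUUGUCcguguugucuucucu
miR-495-5p: gAAGUUGCccauguuauuuucg
miR-411-5p: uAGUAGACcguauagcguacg
miR-409-5p: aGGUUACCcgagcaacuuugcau
miR-134-5p: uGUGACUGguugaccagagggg
miR-654-5p: uGGUGGGCcgcagaacaugugc
miR-543: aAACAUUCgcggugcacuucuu
miR-323a-5p: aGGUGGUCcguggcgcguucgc

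Of the 25 loci, 24 were named as a 5p arm, 0 as a 3p arm and miR-543 without an arm. This naming is not particular to the array. Most named loci in the test across loci were also named 5p, with few named 3p, such as miR-24-3p and miR-148a-3p. The files give no reads per arm, so a level may belong to either arm of the hairpin. For miR-381 the other arm is therefore shown as well, with the members that have a seed in common with a leading one. miR-381-3p has the seed of miR-300, an array miRNA outside the 41 numbers that has no locus in the table. miR-494-5p, miR-323b-5p and miR-410-5p share the seed GGUUGUC. The seed of miR-654-5p is also that of miR-541-3p, whose number was absent. The 85 mature miRNAs of the 41 numbers with a RefSeq sequence held 76 distinct seeds.
miR-381-3p: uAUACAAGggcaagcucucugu
miR-323b-5p: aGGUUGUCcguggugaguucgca
miR-410-5p: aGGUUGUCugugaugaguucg

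In each untreated MCF10A library miRNAs of the array were counted, at a low level led by 1 miRNA. Some miRNAs of the other tissues summed above reached similar levels: miR-122-5p (muscle and liver list) 52.6 CPM and miR-142-5p (blood list) 7.84 CPM. The rest of these 2 lists was lower: miR-1 with 1.82 CPM under each name, miR-223-5p 1.62, miR-144-5p 0.257 and miR-150-5p 0.127. Whether the array counts were made by the cells was not tested. With 1 locus per name they took 334, 344 and 249 counts in replicates 1, 2 and 3. As a share of each library all 25 loci took 0.0131% (exact Clopper-Pearson 95% limits 0.0117 to 0.0146), 0.0134% (0.0120 to 0.0149) and 0.0135% (0.0119 to 0.0153), a mean of 0.0133% ± 0.000212 (SD, n = 3). The 3 libraries were alike in this sum, and each lay within the counting limits of the others. All limits given here cover counting error only, and they treat each count as a separate read. Of the 25 loci, 18 had a count in each untreated library, 5 in 2 libraries and 2 in a single library. With at least 10 counts asked of each library, 6 were left.

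miR-381-5p was the leading member. It had 152, 102 and 111 counts, or 59.1, 39.0 and 59.8 CPM, a mean of 52.6 ± 11.8 (SD, n = 3), which was 39.5% of the summed member level. Replicate 2 was the low one, and its exact Poisson 95% limits (31.8 to 47.3 CPM) did not reach those of replicate 1 (50.1 to 69.3) or replicate 3 (49.2 to 72.0). Even so, the lowest library of miR-381-5p lay above the highest library of every other member.

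miR-379-5p, whose hairpin opens the larger group of the array, came next with 25, 40 and 30 counts (9.72, 15.3 and 16.2 CPM, mean 13.7 ± 3.49). miR-494-5p had 32, 38 and 22 counts (12.4, 14.5 and 11.9 CPM, mean 12.9 ± 1.40). The libraries of these miRNAs overlapped, so their order is not settled. Each of their libraries lay above each library of the members ranked below them, though the lowest value of miR-379-5p (9.72 CPM) was barely above the highest of miR-411-5p (9.70 CPM).

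From the fourth place down the order cannot be fixed. miR-495-5p had 19, 15 and 14 counts (7.39, 5.73 and 7.54 CPM, mean 6.89 ± 1.00). Its range overlapped those of 7 members ranked lower. miR-411-5p had 10, 12 and 18 counts (mean 6.06 ± 3.17 CPM), with replicate 3 the highest. miR-409-5p had 16, 20 and 5 counts (5.52 ± 2.55), with replicate 3 the lowest. miR-134-5p, known in rat neurons as a repressor of Limk1 that limits dendritic spine size, had 10, 10 and 13 counts (4.91 ± 1.82). These are alike in size within their spread, and none had more than 20 counts in a library.

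**Figure D1:**
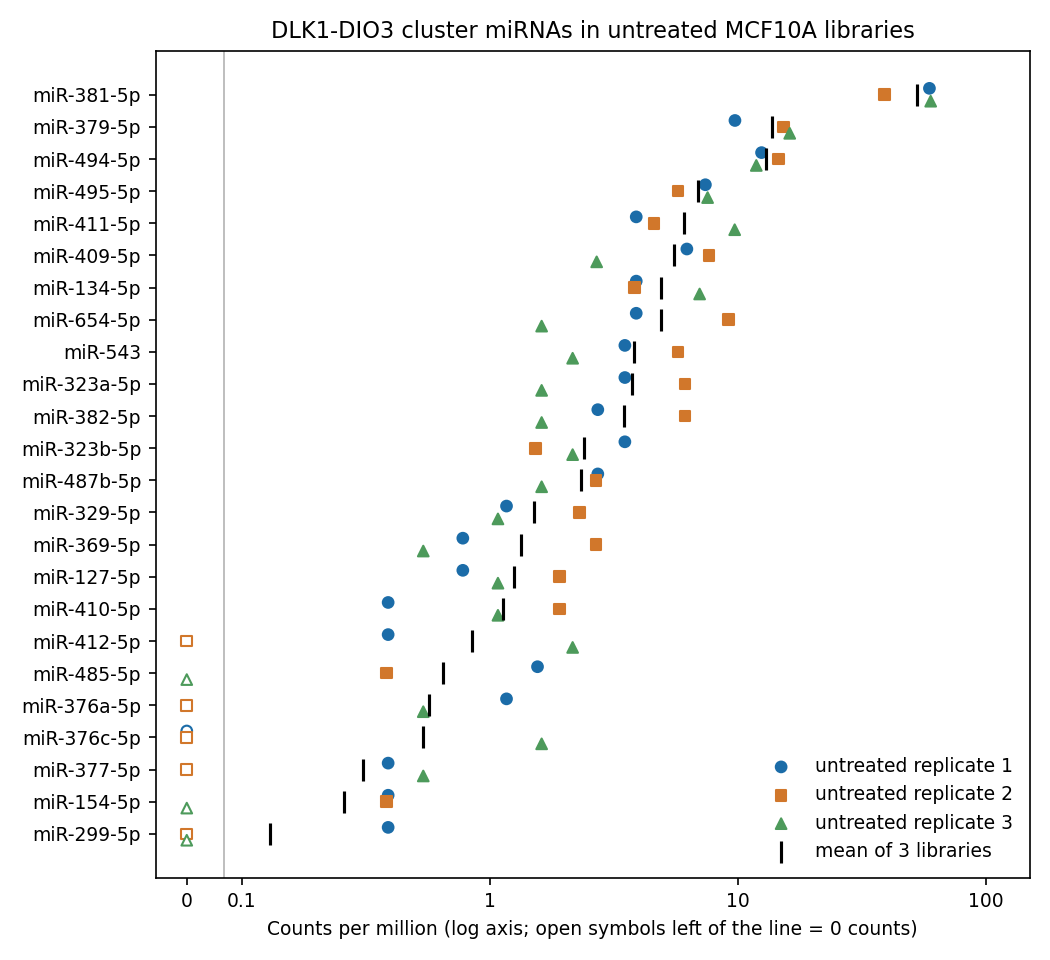
CPM (log axis) of the 24 array miRNA names in the 3 untreated libraries, 1 symbol per library, with the mean as a vertical bar and 0 counts as open symbols at the left. miR-381-5p stands apart at 39.0 to 59.8 CPM, miR-379-5p and miR-494-5p follow at 9.72 to 16.2 CPM, and the ranges of the lower names overlap.

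Several members were highest in replicate 2 and lowest in replicate 3, but among these only miR-654-5p differed beyond its counting limits. miR-654-5p had 10, 24 and 3 counts (3.89, 9.18 and 1.62 CPM), a 5.68-fold range, and the Poisson limits of replicate 2 (5.88 to 13.7) and replicate 3 (0.333 to 4.72) did not meet. miR-323a-5p (9, 16 and 3 counts) and miR-382-5p (7, 16 and 3 counts) each had a 3.78-fold range, highest in replicate 2 and lowest in replicate 3, with limits that overlapped. miR-543 showed the same order with 9, 15 and 4 counts (3.50, 5.73 and 2.16 CPM).

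Of the 17 names with a count in each untreated library, replicate 2 was the highest for 10 (58.8%) and replicate 3 the lowest for 9 (52.9%). Among the 177 other named miRNAs in the same range of mean level, replicate 2 was the highest for 52 (29.4%) and replicate 3 the lowest for 53 (29.9%). Their median level was higher (5.83 CPM, against 3.80 CPM for the 17), and these shares were not tested against counting error. The pattern was not shared by all: replicate 3 was the highest for 5 of the 17 and replicate 2 the lowest for 4, among them miR-381-5p, miR-495-5p and miR-134-5p. Without miR-381-5p the other 23 names summed to 70.8, 92.5 and 74.4 CPM, whereas all 24 names, 1 locus each, summed to 129.9, 131.5 and 134.2 CPM. Neighbouring miRNAs may come from 1 transcript and are not independent, so these shares are a description of 3 libraries.

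**Figure D2:**
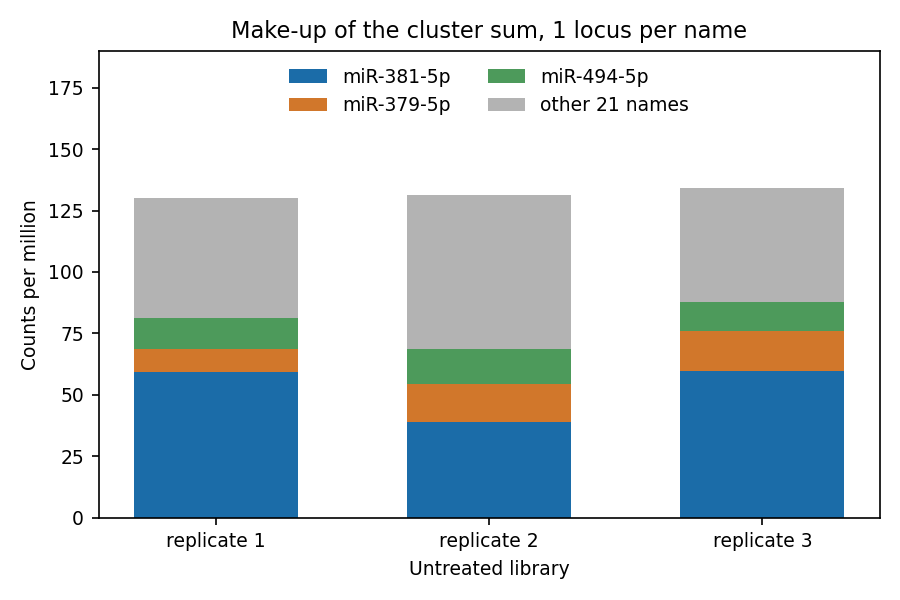
Summed level of the array in CPM in each untreated library (1 locus per name), divided into miR-381-5p, miR-379-5p, miR-494-5p and the other 21 names. The sums are 129.9 to 134.2 CPM, while the part of miR-381-5p is 59.1, 39.0 and 59.8 CPM and that of the remaining names is largest in replicate 2.

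The members at the low end were near the limit of counting. miR-323b-5p had 9, 4 and 4 counts, miR-487b-5p 7, 7 and 3 and miR-369-5p 2, 7 and 1. miR-127-5p had 2, 5 and 2 counts (1.26 ± 0.587 CPM). In mouse, miR-127 acts on Rtl1 from the opposite strand, and the arm counted here is not known. miR-410-5p, of the last group of the array, had 1, 5 and 2 counts. miR-412-5p, miR-485-5p, miR-376a-5p, miR-376c-5p, miR-377-5p, miR-154-5p and miR-299-5p each lacked a count in at least 1 untreated library and had at most 4 in any.

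The 2 loci named miR-329-5p had equal counts in each library (3, 6 and 2 at both). Both RefSeq hairpins hold the same mature arms, shown here in capitals, so a read of either arm fits both copies and the loci are 1 measurement.
MIR329-1: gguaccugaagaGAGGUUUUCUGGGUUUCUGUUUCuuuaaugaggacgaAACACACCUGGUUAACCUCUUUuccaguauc
MIR329-2: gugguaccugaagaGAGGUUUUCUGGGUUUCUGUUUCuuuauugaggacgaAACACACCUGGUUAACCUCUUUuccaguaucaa

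Counts were found mostly in 1 stretch of the array. RefSeq places 47 hairpins of the 41 numbers over 214.4 kb on the plus strand of chromosome 14 (100852390 to 101066801, GRCh38.p14), and the largest gap between neighbours, 111 kb, lies between MIR370 and MIR379. Of the 10 hairpins before the gap (MIR770 to MIR370), MIR127 was the 1 with a locus, with 2, 5 and 2 counts. Absent by name were miR-770, miR-493, miR-337, miR-665, miR-431, miR-433, miR-432, miR-136 and miR-370. MIR127, MIR431, MIR433, MIR432 and MIR136 lie opposite an exon of RTL1 in GENCODE v29. Of the 37 hairpins after the gap (MIR379 to MIR656), 24 had a locus, with 332, 339 and 247 counts (1 locus per name), or 99.0% of the member level. Absent there were miR-380, miR-496, miR-539, miR-541, miR-544, miR-655, miR-656, miR-668, miR-758 and miR-889, and the copies MIR376A2, MIR376B and MIR487A. For scale, 3 counts over all untreated libraries are 0.426 CPM.

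By position alone, the level fell within several annotated hosts, most of it in MIR381HG (41.7%) and MEG8 (37.0%, 1 locus per name). No host transcript was measured. In GENCODE v29, 12 hairpins lie in introns of MEG8, of which MIR370 is before the gap. Of the 12, 9 had a locus, among them miR-379, miR-411, miR-494 and miR-495, with 48.8 ± 6.24 CPM in sum (1 locus per name, as in the sums by host that follow). MIR381 (101045920 to 101045994) and MIR487B lie in an intron of MIR381HG and made 159, 109 and 114 counts (55.0 ± 11.5 CPM), while the other 4 hairpins of that transcript (MIR539, MIR889, MIR544A and MIR655) had no locus. MEG9 holds 6 hairpins, of which MIR409, MIR412, MIR369 and MIR410 had loci, with 20, 32 and 12 counts (8.83 ± 3.02 CPM). The 14 hairpins in no annotated host, from MIR376C to MIR377, had 45, 56 and 28 counts, and 9 of them had a locus. miR-376a has 2 such hairpins, and its 1 locus is MIR376A1 by name and by order. Both copies hold the same miR-376a-3p, so a read of that arm would fit either.

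**Figure D3:**
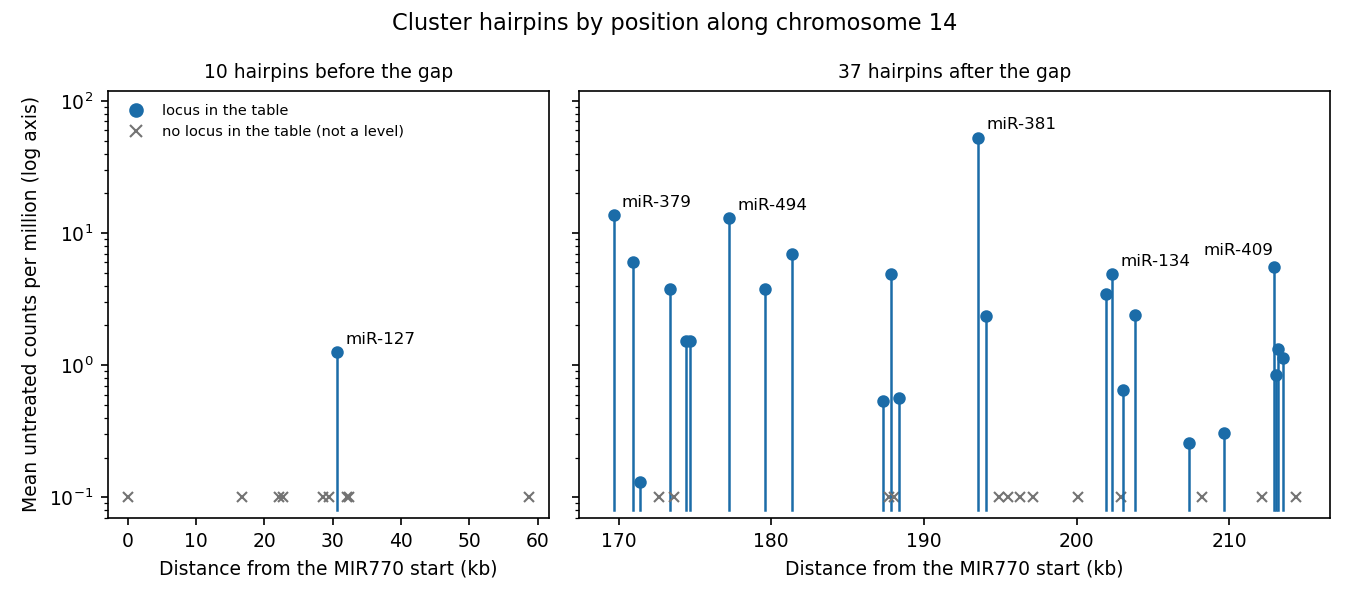
Mean untreated level (CPM, log axis) of each array hairpin against its distance from the start of MIR770 in kb, with the 111 kb gap between the panels. Crosses mark the positions of hairpins with no locus and not levels. miR-127 is the 1 locus before the gap, at 1.26 CPM, and miR-381 is the highest after it, at 52.6 CPM.

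Most array loci were lower than most other named miRNAs. The median of the 25 member loci was 2.34 CPM, that of the 425 other named loci 19.5 CPM and that of all 947 loci 3.80 CPM. miR-381-5p ranked 162 of 450 named loci and was the 1 member locus above the median of the other named loci. Outside the 41 numbers the array added miR-1185-5p (5, 3 and 2 counts), 1 of 4 further array miRNAs looked for (with miR-300, miR-1193 and miR-1197). The 27 other loci of chromosome 14, named or not, had a median of 2.15 CPM, close to that of the array, and the 10 of them with a name 23.5 CPM. Those 10 ran from 0.698 CPM for miR-4707-5p to 442 ± 150 CPM for miR-342-5p.

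C19MC, the other large imprinted miRNA array, on chromosome 19 and known from placenta, gave 1 locus for the 17 numbers looked for. This was miR-523-5p, with 0, 1 and 0 counts. The array on chromosome 14 was thus counted at 24 names against 1, and at 132 CPM (1 locus per name) against 0.127 CPM. miRNAs of neural cells, in which the chromosome 14 array is known to be active, took 2216 CPM. Most of this was miR-128, with 1070 CPM and equal counts under each of its names. Both names are in the sum, which may thus hold the same reads more than once. The list without miR-128 took 75.5 CPM, led by miR-9-5p (118, 115 and 102 counts).

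After withaferin A the array was not seen, and the libraries were too small to have shown it. Each of the 25 loci had 0 counts in each withaferin A library, 0 of 1188 counts in all. The limit used here for the summed share is the level of 3 counts, 0.253% (2525 CPM). An exact Clopper-Pearson limit, as given for the untreated shares, would be higher than this 3-count limit. The summed level of the 25 loci in untreated cells, 133.4 CPM, lies 18.9-fold below the 3-count limit, and miR-381-5p alone 48.0-fold below it. At the untreated share, 0.158 member counts would be expected in 1188. About 22493 counts would be needed to expect 3 from the array, and about 56989 to expect 3 from miR-381-5p. Of all 947 loci 52 had an untreated mean above the limit, and 0 of them were array loci. No fold can therefore be given for any member, in either direction.

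**Figure D4:**
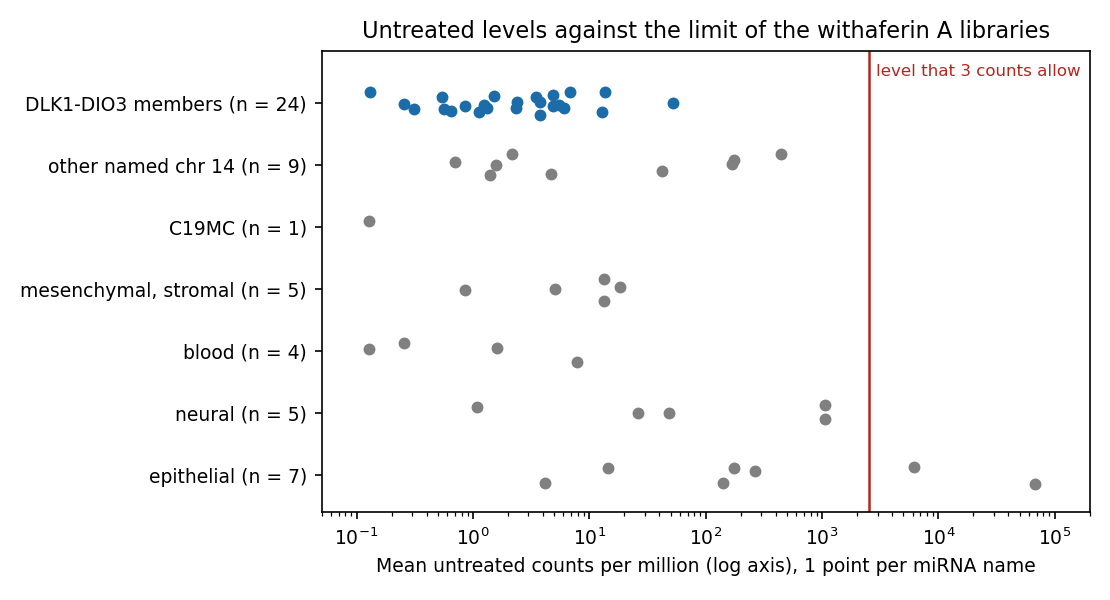
Mean untreated CPM (log axis), 1 point per miRNA name, for the array and for 6 other sets, vertical jitter added for legibility. The red line marks 2525 CPM, the level of 3 counts in the 1188 withaferin A counts. The array points lie at 0.130 to 52.6 CPM, all to the left of the line.

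In edgeR's quasi-likelihood test 303 loci passed the filter on low counts, 2 of them array loci, miR-381-5p and miR-494-5p. Of these 2, 0 were called (adjusted p = 0.792 for both, 0 at an unadjusted p under 0.05), where 53 of 303 loci, 17.5%, were called over the whole table. Both loci passed the filter through the untreated libraries and were at 0 in each withaferin A library, where 0.0625 and 0.0154 counts would be expected at their untreated levels, so the test could not bear on them and nothing is read from it. The sign of the fitted change depended on the tool. DESeq2 and limma-voom put both above 0, limma-voom called both higher, where it called 59.4% of the 303 loci higher, and limma on the authors' normalized score called all 17 array loci that have a score lower, where it called 95.3% of 660 loci lower. These member counts are near the share over all loci or rest on 2 loci, and are no result about the array. By the depth given above, and not by these tests, a fall after withaferin A was not detectable. Nor was a rise of the summed level that stayed below the limit, which lies 18.9-fold above the untreated sum.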

How the data were processed

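The authors' deposited table holds raw counts per locus, as whole numbers, for 947 loci, of which 450 carry a miRNA name. A second deposited table holds the authors' normalized score for 660 loci, which are the loci above 0.5 CPM in at least 3 libraries. The tools named in the submitters' processing notes are cutadapt, Trim Galore and edgeR, and the build is GRCh38.p7. The aligner and the counting rule are not given in the sources used here, nor is the use of molecular identifiers. Columns were assigned to groups by the sample names in each record, and 0 pairs of columns were identical. The running numbers in the locus names rose with RefSeq position at the 25 array loci, each matched to a hairpin.

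The test across loci was edgeR's quasi-likelihood test (version 4.0.16, run in R 4.3.3) on TMM-scaled libraries. It kept loci that passed filterByExpr at 10 counts, and p-values were Benjamini-Hochberg adjusted over all of them, with 0.05 as the threshold. The fit was tested on simulated data first. The pass rule covered only a simulation with all libraries at untreated depth, so it does not vouch for the fit at the withaferin A depth. Alternatives were library totals, RLE factors, DESeq2 1.42.0, limma 3.58.1 (voom, and log2(score + 1)), no filter, a replicate block and leaving out each library. P-values reflect only how far these libraries differ, and that spread may be technical. Sums of levels add both miR-329-5p loci unless 1 locus per name is stated. The members and lists were chosen with earlier results of these data known. Sequences are from RefSeq (GRCh38.p14), in which each of the 24 member names was found, and host transcripts from GENCODE v29. Named in the text are members kept by the filter, the 10 highest by mean untreated CPM, the 5 lowest of those detected in each untreated library, those with an over 3-fold range between untreated libraries and at least 10 counts in one of them, and the absent numbers. Other members are named where they share a seed or complete a count, chosen after their values were seen.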

Additional observations from a re-analysis of the deposited data

How the results depend on the processing

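The count of loci called, 53, was 17 with library totals, 234 in limma-voom, 631 in limma on the authors' score and 25 with a replicate block, and 6 to 59 without 1 library. Fits without an untreated library tested 10 to 12 loci, none of them an array locus. The count of array loci called was 0 of 2, 2 in limma-voom and 17 of 17 on the score, and 0 in the other fits that tested array loci (0 of 25 with no filter, 0 without each withaferin A library). The fitted log2 changes below 0 in edgeR (−8.94 for miR-381-5p, −6.94 for miR-494-5p) depend on the prior count and are no fold. They reversed in DESeq2 (1.10 and 3.11, no adjusted p) and limma-voom (3.53 and 5.52), and the cause was not tested. Deviations of same-numbered libraries of the groups had r = 0.0526, −0.00450 and 0.0772, and not each library correlated best with its own number. With 340 to 430 counts per withaferin A library these values cannot show whether libraries were paired. The labels give no pairing. The summed untreated share, 0.0133%, was 0.0194% with TMM library sizes and 0.0132 to 0.0135% without 1 library. The 18 loci detected in each untreated library were 6 at 10 counts and 18 to 21 without 1 library. The limit after withaferin A, 0.253%, was 0.354 to 0.396% without 1 library. With TMM library sizes, the levels of 6 of the 10 leading members moved beyond their SD. Leaving out 1 library cannot move a mean beyond that SD, so nothing is read from the levels recomputed in that way. Depth limits all statements on withaferin A.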

Other observations

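Other imprinted miRNAs of MCF10A cells spanned a wide range in the untreated libraries. miR-335-5p, from an intron of the paternally read MEST, had 969, 1200 and 629 counts (392 CPM). miR-296-5p of the GNAS region had 55, 70 and 29 counts (21.3 CPM). Both arm names of miR-675, made from H19, had the same 5, 4 and 3 counts, and both had them again on a further contig. The arm in these names is therefore not a level of that arm. miR-483, within IGF2, had no locus. All had 0 counts after withaferin A.

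Array hairpins had stem letters in common that the choice of members did not use. GGUAC, read on the hairpin's own strand, was in 10 of 23 hairpins of listed members with a RefSeq sequence here (43.5%), which do not include MIR381, the leading member, or MIR412. It was in 2 of 20 unlisted hairpins of the 41 numbers, made up of 2 of 13 after the gap and 0 of 7 before it, and in 54 of 1519 other human hairpins (3.55%). AGUAUC was in 7 of 23 (30.4%), 5 of 20 (5 of 13 after the gap and 0 of 7 before it) and 11 of 1519 (0.724%). Both were picked by reading these hairpins, and no test was made.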
